A study of Mus musculus with 6 samples.

Results

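Notch1, Notch2, Notch3, Jag1, Jag2, Dll1, Rbpj, Hes1 and Hey1 are 9 genes of the Notch pathway, and their RNA was measured in cultured mouse keratinocytes with and without Dnmt1, the gene of the methyltransferase that copies DNA methylation onto newly made strands. The genes were chosen by symbol as listed receptors, ligands, nuclear factor and targets of the pathway, and all 9 were found among the 43629 genes of the count table. Each of the 9 also passed the filter on low counts, which kept 16829 genes.

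Keratinocytes were isolated from the epidermis of female mice at P3 (postnatal day 3) and grown for 5 days according to the labels, in medium with 0.05 mM CaCl2 and 8% chelated serum on collagen-fibronectin dishes. The 3 Dnmt1Δ/Δep libraries came from mice with 2 floxed Dnmt1 alleles and a K5-Cre transgene, which deletes the gene in cells that express keratin 5. The 3 control libraries came from control mice, for which the paper names Dnmt1 f/f and Dnmt1 f/+ animals without K5-Cre, with no word on which of these each library was. All lines were kept on a mixed C57BL/6J and 129SV background, each library is described as 1 mouse, and poly(A)-selected RNA was sequenced. A survival plot of the paper also counts heterozygous K5-Cre carriers as controls. Whether any control library carried K5-Cre is not given, and if none did, the transgene and the deletion cannot be told apart. The low calcium of the medium keeps keratinocytes largely in a basal state, so the cultures are a model of basal rather than of stratified epidermis.

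Notch receptors are membrane proteins that are cut when a ligand of the Jagged or Delta-like family on a neighbouring cell binds them. The released intracellular domain enters the nucleus, joins the DNA-binding protein RBPJ and switches on targets such as the repressors of the Hes and Hey families. In the epidermis the pathway is known for promoting the switch from basal to suprabasal fate, and for restraining skin tumours.

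Dnmt1 itself was read first. It was measured at 394, 379 and 324 CPM (gene reads scaled to the same library total, with TMM, a correction for library composition) in the control libraries and at 49.7, 54.3 and 50.7 CPM after deletion. Each library carried the level its label implies, with a log2 fold change of -2.83 (SE 0.11, adjusted p = 8.1e-05 in the quasi-likelihood test of edgeR, adjusted over all 16829 genes by Benjamini and Hochberg). The libraries held between 53433121 and 115526598 reads on genes, so that a count of 3, read as the limit of detection, is worth 0.0254 to 0.0558 CPM. The basal keratin genes Krt5 and Krt14 averaged 17900 and 9440 CPM in control, as in keratinocytes. One control library, replicate 1, stood apart from the others in the suprabasal keratin gene Krt1, with 53.2 CPM against 356 and 530 CPM. Replicates of the same number shared a lane of the flow cell, and differences within each lane are given for the members as 3 pairs.

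Of the 9 Notch genes, Jag1 rose and Dll1 fell in Dnmt1Δ/Δep keratinocytes at an adjusted p of 0.05. Neither estimate reached 2-fold, a size at which 6.03% of all genes tested were called higher, 0.392% lower and 6.42% either way. The 95% interval of the log2 fold change of Dll1, -1.37 to -0.48, includes a 2-fold fall. The other 7 genes, among them all 3 receptors and both targets, did not pass the test. Over all genes tested, 9.36% passed at this threshold, 7.71% higher and 1.66% lower, so that fewer than 1 of 9 genes would pass at the background share. The control and Dnmt1Δ/Δep values did not overlap for 4 of the 9 genes, 2 higher and 2 lower, beside 29.9% of all genes tested. At an unadjusted p of 0.05, 3 of the 9 passed, beside 23.6% of all genes tested. The median log2 fold change of the 9 genes was -0.06, and that of all genes tested was 0.00. These counts are small, and nothing particular to the 9 genes is read from them.

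**Figure D1:**
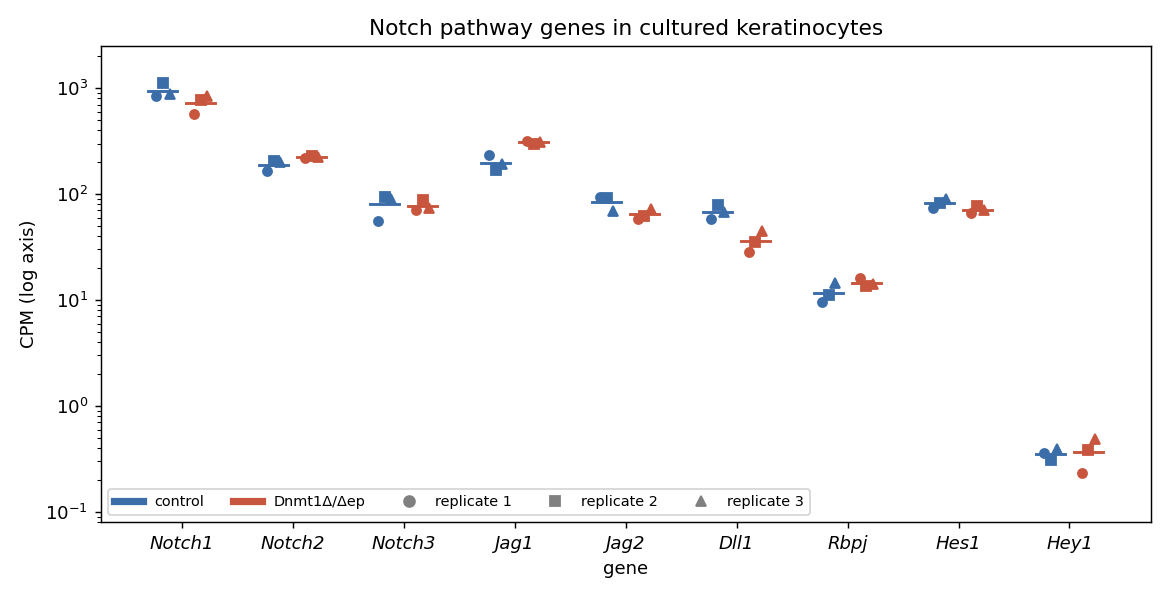
Level of each Notch gene in CPM on a log axis, with 1 symbol per library (3 control in blue, 3 Dnmt1Δ/Δep in red, the shape giving the replicate) and a bar at the mean of each group. Jag1 lies higher and Dll1 lower in all 3 Dnmt1Δ/Δep libraries than in any control library, and Hey1 lies below 1 CPM in every library.

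Notch1, a receptor required in the epidermis (ENSMUSG00000026923, minus strand of chromosome 2, 26457903 to 26516663 in GRCm38), was measured at 837, 1120 and 877 CPM in control and at 573, 770 and 835 CPM in Dnmt1Δ/Δep libraries. All 3 Dnmt1Δ/Δep values were below all 3 control values, although the highest of them was close to the lowest control value. The means were 943 ± 151 and 726 ± 136 CPM (SD, n = 3 per group), and the log2 fold change was -0.38 (SE 0.18, 95% interval -0.79 to 0.03, edgeR adjusted p = 0.25). Within the lanes the log2 differences were -0.55, -0.54 and -0.07 for replicates 1, 2 and 3. A lower Notch1 level was thus seen in each pair, and the difference did not pass the test (unadjusted p = 0.067 in edgeR).

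Notch2 (ENSMUSG00000027878, plus strand of chromosome 3, 98013527 to 98150361), a second receptor of the epidermis, was measured at 164, 204 and 200 CPM in control and at 219, 231 and 223 CPM in Dnmt1Δ/Δep libraries. The Dnmt1Δ/Δep values lay close together and above each control value. The log2 fold change was 0.24 (SE 0.11, interval -0.01 to 0.50, edgeR adjusted p = 0.24), and Notch2 did not pass the test. Without control replicate 1, which gave the lowest of the 6 values, it was 0.15 (adjusted p = 0.32).

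Notch3 (ENSMUSG00000038146, minus strand of chromosome 17, 32120820 to 32166852), a receptor also found in the mural cells of vessels, was measured at 56.2, 94.2 and 90.6 CPM in control and at 71.1, 87.3 and 73.3 CPM in Dnmt1Δ/Δep libraries. The groups overlapped, and control replicate 1 was the lowest of the 6. The log2 fold change of -0.06 (SE 0.20, interval -0.53 to 0.41, edgeR adjusted p = 0.92) changed sign when control replicate 2 was left out (0.07) and came to -0.26 without control replicate 1. Neither value passed the test.

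As shares of the summed RPKM of the 3 receptors (CPM divided by the exon length in kilobases, so that levels of different genes can be compared), Notch1 made up 72.6%, 71.9% and 67.4% in control and 58.1%, 62.7% and 66.3% in Dnmt1Δ/Δep libraries. Its share did not overlap between the groups, and neither did that of Notch2, which came to 18.8%, 17.4% and 20.3% in the control libraries and to 29.2%, 24.8% and 23.4% after deletion. Notch1 nevertheless remained the receptor with the highest level in each of the 6 libraries. With 3 libraries against 3, an exact two-sided permutation test of such a share cannot give a p below 0.1.

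Jag1 (ENSMUSG00000027276, minus strand of chromosome 2, 137081456 to 137116644), a Jagged ligand that the hair follicle needs, was the member that rose. It was measured at 233, 168 and 192 CPM in control and at 318, 294 and 309 CPM in Dnmt1Δ/Δep libraries, from 10297 to 36494 reads per library. Even the lowest Dnmt1Δ/Δep value exceeded the highest control value, and the Dnmt1Δ/Δep values differed little among themselves.

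The mean of Jag1 rose from 198 ± 32.6 to 307 ± 12.0 CPM (SD, n = 3 per group), a fold change of 1.55. On the log2 scale this was 0.63 (SE 0.13, interval 0.33 to 0.94), with an edgeR adjusted p = 0.026. Jag1 was higher in 3 of 3 lane pairs, by 0.45, 0.80 and 0.69. The call was lost when control replicate 2 (log2 fold change 0.53, edgeR adjusted p = 0.097) or control replicate 3 (0.61, adjusted p = 0.072) was left out, and likewise without Dnmt1Δ/Δep replicate 1 (0.61, adjusted p = 0.098), 2 (0.61, adjusted p = 0.081) or 3 (0.63, adjusted p = 0.084). Without control replicate 1 it stood at 0.77 (edgeR adjusted p = 0.0055).

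Because the deleted enzyme maintains methylation at CG dinucleotides, a stretch upstream of the Jag1 start is shown with these in capitals. It is taken from RefSeq on GRCm38.p6, reads 5′ to 3′ on the minus strand of chr2:137116645-137116770, ends where the first exon of GENCODE begins and holds 14 CG dinucleotides in 126 bases.
Jag1 upstream: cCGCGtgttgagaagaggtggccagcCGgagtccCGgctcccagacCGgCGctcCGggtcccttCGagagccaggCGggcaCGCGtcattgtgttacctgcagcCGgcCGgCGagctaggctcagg
In the whole window of 300 bases, from 250 before to 50 after the RefSeq start, which lies within that exon, Jag1 held 22 CG dinucleotides, more than 77.7% of the 32841 windows of this kind, whose median was 7. Methylation was not measured in these libraries.

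Jag2 (ENSMUSG00000002799, minus strand of chromosome 12, 112907819 to 112929776), the second Jagged ligand, was measured at 93.4, 91.5 and 69.6 CPM in control and at 57.6, 62.3 and 72.7 CPM in Dnmt1Δ/Δep libraries. Control replicates 1 and 2 lay above all Dnmt1Δ/Δep values, and control replicate 3 fell among the latter. The log2 fold change was -0.40 (SE 0.15, interval -0.75 to -0.06), and its unadjusted p of 0.028 in edgeR became an adjusted p = 0.15. The lane pairs gave -0.70, -0.55 and 0.06. Jag2 did not pass in any of 14 alternative fits, in which its adjusted p lay between 0.063 and 0.38.

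Dll1 (ENSMUSG00000014773, minus strand of chromosome 17, 15367354 to 15376872), a Delta-like ligand found on basal keratinocytes, was the member that fell. It was measured at 57.9, 78.7 and 68.4 CPM in control and at 28.2, 35.0 and 44.8 CPM in Dnmt1Δ/Δep libraries, from 1681 to 7667 reads per library. Every Dnmt1Δ/Δep value was below every control value.

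The mean of Dll1 fell from 68.3 ± 10.4 to 36.0 ± 8.33 CPM (SD, n = 3 per group), to 0.527 of the control level. The log2 fold change was -0.92 (SE 0.19, interval -1.37 to -0.48, edgeR adjusted p = 0.026), and the lane pairs gave -1.04, -1.17 and -0.61. This call was lost without control replicate 2 (-0.81, adjusted p = 0.1), control replicate 3 (-0.93, adjusted p = 0.057), Dnmt1Δ/Δep replicate 1 (-0.78, adjusted p = 0.078) or Dnmt1Δ/Δep replicate 2 (-0.96, adjusted p = 0.08), by edgeR. Without control replicate 1 the value was -1.03 (edgeR adjusted p = 0.017). An antisense gene, A930024N18Rik, covers 20.5% of the exon bases of Dll1 and had only 10 to 33 counts per library. Whether the counting used strand is not given in the sources used here.

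The stretch before the upstream start of Dll1 is shown for the same reason as that of Jag1. It is RefSeq sequence on GRCm38.p6, 5′ to 3′ on the minus strand of chr17:15376933-15377182, with 13 CG dinucleotides, in capitals, in 250 bases.
Dll1 upstream: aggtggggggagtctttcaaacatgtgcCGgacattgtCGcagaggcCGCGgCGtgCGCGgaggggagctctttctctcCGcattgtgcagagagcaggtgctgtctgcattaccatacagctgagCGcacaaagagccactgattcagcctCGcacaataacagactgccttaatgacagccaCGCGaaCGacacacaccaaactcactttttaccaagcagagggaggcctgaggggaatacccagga
The full window of 300 bases held 15 CG dinucleotides (above 66.2% of all windows), and that of a second, downstream start of Dll1 held 24 (80.8%). Both genes, which moved in opposite directions, had more CG dinucleotides at their starts than the median window.

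The windows of the other members held 23 CG dinucleotides for Notch1, 41 for Notch2, 25 for Notch3, 63 for Jag2, and 26 and 28 for the 2 starts of Rbpj. Jag2 had the most, at a percentile of 100 among all windows. In all, 7 of the 9 genes had an entry, with 9 windows. The letters TGGGAA, the core of the motif that RBPJ binds, were searched on both strands. They stood in 25.6% of all windows and, among the 9 windows of the members, in those of Rbpj only, with 2 matches and 1 match in windows that overlap each other. A match is a run of letters and not a binding site.

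The make-up of the ligand RNA was also compared per length. Jag1 made up 59.6%, 47.6% and 55.6% of the summed RPKM of the 3 ligands in control and 78.5%, 74.5% and 71.6% in Dnmt1Δ/Δep libraries. The Dll1 share came to 20.5%, 30.7% and 27.4% in the control libraries and to 9.62%, 12.2% and 14.3% after deletion. The share of Jag2 was lower as well, with 20.0%, 21.6% and 16.9% against 11.9%, 13.2% and 14.1%.

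The shares of all 3 ligands did not overlap between the groups, and since they sum to a whole they are not independent of each other or of the changes of Jag1 and Dll1 given above. Summed over the ligands, RPKM came to 67.1, 60.7 and 59.1 in the control libraries and to 69.5, 67.7 and 74.1 after deletion, and that of the receptors was 81.0, 109 and 91.4 against 69.4, 86.3 and 88.4. The ligand sum was higher in each Dnmt1Δ/Δep library than in any control library by a small margin, and the receptor sums overlapped.

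**Figure D2:**
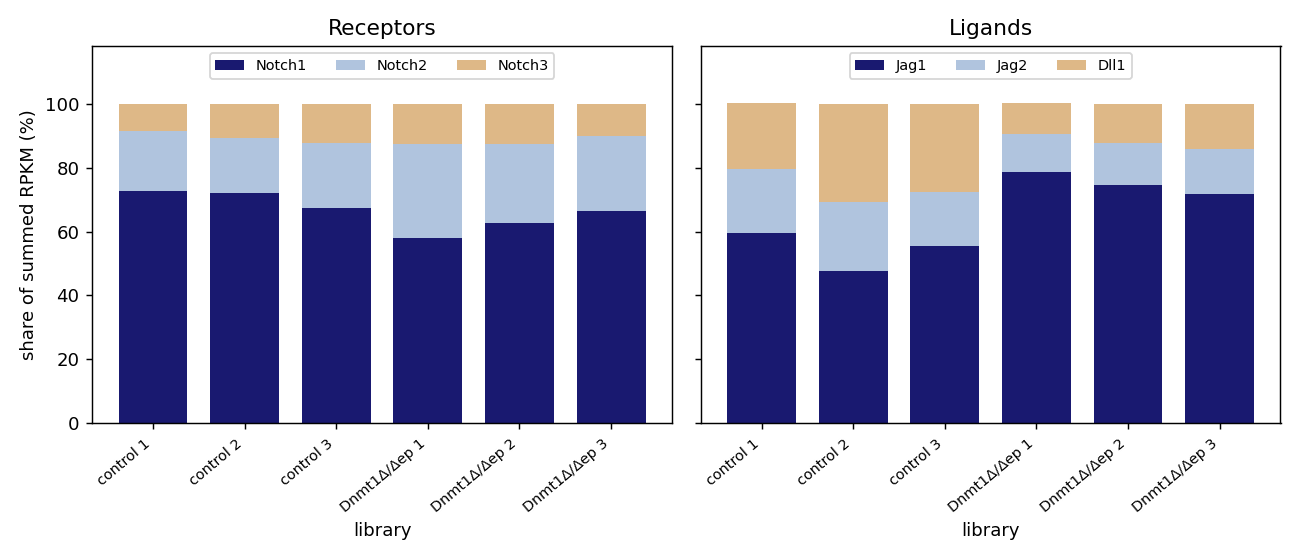
Share of each receptor (left) and ligand (right) in the summed RPKM of its class, in percent, with 1 stacked bar per library. The Jag1 share lies between 47.6% and 59.6% in control and between 71.6% and 78.5% in Dnmt1Δ/Δep libraries, while Notch1 holds over 58% of receptor RPKM in each library.

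Rbpj (ENSMUSG00000039191, plus strand of chromosome 5, 53466152 to 53657362), the nuclear factor through which all Notch receptors act, was measured at 9.56, 11.1 and 14.4 CPM in control and at 16.2, 13.5 and 14.1 CPM in Dnmt1Δ/Δep libraries. The groups overlapped through control replicate 3. Rbpj had a log2 fold change of 0.32 (SE 0.18, interval -0.10 to 0.74, edgeR adjusted p = 0.35), with 0.76, 0.28 and -0.04 in the lane pairs. Rbpj has processed copies in the genome. Rbpj-ps3 on chromosome 6 (46529354 to 46530794) had 253, 106 and 4 counts in control and 97, 127 and 171 in Dnmt1Δ/Δep libraries, and Rbpj-ps1 had none. Only reads with a unique match were counted, so reads that fit the gene and a copy equally well were dropped, and the level of Rbpj is uncertain.

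Hes1 (ENSMUSG00000022528, plus strand of chromosome 16, 30064384 to 30067796), a repressor and a well-known Notch target in the epidermis, was measured at 73.9, 81.9 and 89.2 CPM in control and at 66.6, 77.5 and 70.2 CPM in Dnmt1Δ/Δep libraries. The ranges overlapped, and each lane pair was lower in Dnmt1Δ/Δep keratinocytes, by log2 differences of -0.15, -0.08 and -0.35. In edgeR the change of Hes1 was -0.19 on the log2 scale (SE 0.11, interval -0.45 to 0.06, edgeR adjusted p = 0.35). This interval leaves room for a fall to 0.732 of the control level and for a rise to 1.05 times that level.

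Hey1 (ENSMUSG00000040289, minus strand of chromosome 3, 8663359 to 8667256), a related repressor, was hardly transcribed. It had 34, 30 and 21 counts in control and 14, 33 and 57 in Dnmt1Δ/Δep libraries, which came to 0.359, 0.308 and 0.391 CPM against 0.235, 0.382 and 0.483 CPM. The Dnmt1Δ/Δep values lay on both sides of the control values. At this depth the log2 fold change of 0.08 (SE 0.37, edgeR adjusted p = 0.94) had an interval from -0.79 to 0.94. That interval leaves room for a fall to 0.579 or a rise to 1.92 times the control level.

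**Figure D3:**
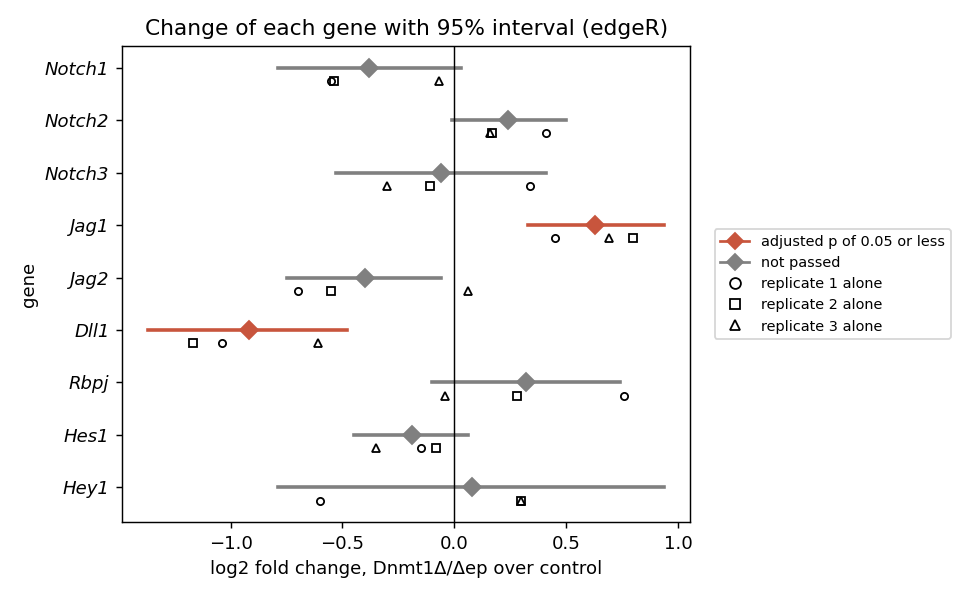
Log2 fold change of each Notch gene, Dnmt1Δ/Δep over control, with its 95% interval from edgeR (red where the adjusted p was 0.05 or less) and, under it, the difference within each of the 3 lane pairs as open symbols. Jag1 and Dll1 alone are red. They have 3 of 3 pairs on the same side of 0, as do Notch1, Notch2 and Hes1. The pairs of Notch3, Jag2, Rbpj and Hey1 fall on both sides.

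Ordered by RPKM over the union of exons, the control levels were 66.3 ± 10.6 for Notch1, 40.1 for Hes1, 33.9 ± 5.60 for Jag1, 17.6 for Notch2, 16.2 ± 2.46 for Dll1, 12.2 for Jag2, 9.93 for Notch3, 0.917 for Rbpj and 0.108 for Hey1. Neighbours whose ranges overlapped were Hes1 and Jag1, Notch2 and Dll1, and Jag2 and Notch3. All other neighbours were apart. Notch1 exceeded 96.0% of all genes tested in control RPKM, Rbpj 33.8% and Hey1 12.7%.

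In Dnmt1Δ/Δep keratinocytes, Jag1 (52.7 ± 2.07 RPKM) and Notch1 (51.0 ± 9.56) headed the order with overlapping ranges, followed by Hes1 (35.1) and Notch2 (20.8), each apart from the next. Notch3 (9.55), Jag2 (9.22) and Dll1 (8.53 ± 1.97) then overlapped, and Rbpj (1.14) and Hey1 (0.112) came last. By the union of exons, Notch2 lay above Dll1 within each control library, although their ranges over the libraries overlapped. With the length of the longest coding transcript this turned around. Dll1 (mean 19.1 RPKM) then lay above Notch2 (18.1) within each control library, again with overlapping ranges. In the Dnmt1Δ/Δep order, Dll1 came after Jag2 and Notch3. Several places in this order, those of Jag1 and Dll1 among them, depend on the length used. With the length of the longest coding transcript, Notch1 was at 76.5 RPKM in Dnmt1Δ/Δep keratinocytes, apart from Jag1 at 54.7.

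Spread among replicates differed between members. In control the coefficient of variation of the CPM ran from 9.38% for Hes1 to 26.1% for Notch3, and in Dnmt1Δ/Δep libraries from 2.66% for Notch2 to 34.0% for Hey1. For Jag1 it came to 16.5% in control and to 3.93% after deletion, whereas for Dll1 it was 15.2% and 23.1%. In both groups, replicate 1 had the lowest value of Notch1, Notch2, Notch3, Dll1 and Hes1 and the highest value of Jag1. Replicate 1 of both groups was sequenced in the same lane, and the part of the lane in these values was not tested.

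The genes whose profile over the 6 libraries was closest to that of each member were found by the root mean square difference of centred log2 CPM, among 9309 genes with a mean of at least 10 CPM. For Jag1 this was Cdk17, a kinase gene, with a difference of 0.0481, and for Dll1 it was Gli2, which encodes a transcription factor of the Hedgehog pathway, with 0.0461. The others were Prr12 for Notch1 (0.0605), Atp9a for Notch2 (0.0299), Vps37c for Notch3 (0.0438), Ubtd2 for Jag2 (0.0593), Dnajb9 for Rbpj (0.0658) and Fbxo8 for Hes1 (0.0247). For Hey1 the closest, Dixdc1, was less alike, at 0.137. No member was the closest to another member.

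A further 50 genes of the pathway were listed by role, and 44 of them were tested. One rose and 4 fell, beside the 7.71% and 1.66% of all genes given above. Their median log2 fold change was -0.06. Dlk2 and Lfng fell by over 2-fold, beside 0.392% of all genes tested that were called lower at that size. The groups did not overlap for 20 of the 44, 7 higher and 13 lower, beside 18.2% and 11.7% of all genes tested.

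Among 5 other receptors and ligands, Dlk2, a Delta-like protein that lacks the domain by which ligands activate Notch, was the one that passed. It was measured at 24.9, 31.7 and 21.7 CPM in control and at 8.86, 10.7 and 13.5 CPM in Dnmt1Δ/Δep libraries. Dlk2 fell in Dnmt1Δ/Δep keratinocytes with no overlap (log2 fold change -1.24, SE 0.20, edgeR adjusted p = 0.011), and it passed in all 14 alternative fits. The receptor Notch4 stayed between 0.130 and 0.338 CPM, Dlk1 did not pass (0.79, adjusted p = 0.59), nor did Dll3 (1.49, adjusted p = 0.11) at a mean of 0.0669 CPM in control, and Dll4 was below the filter. The median of the 4 tested was 0.39, and it rests on genes of very low counts.

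Among 5 genes that attach sugars to the receptors, Lfng fell. Lfng encodes lunatic fringe, which extends the sugars on Notch and alters how receptors respond to Jagged and Delta-like ligands. It was measured at 15.8, 20.2 and 16.0 CPM in control and at 6.81, 7.37 and 10.5 CPM in Dnmt1Δ/Δep libraries, again without overlap. Lfng had a log2 fold change of -1.08 (SE 0.20, edgeR adjusted p = 0.019). The call was lost in 3 of 14 alternative fits, without control replicate 2 (edgeR adjusted p = 0.081), Dnmt1Δ/Δep replicate 1 (adjusted p = 0.073) or Dnmt1Δ/Δep replicate 2 (adjusted p = 0.067). Rfng, which had the highest RPKM of the list (14.2 in control), gave -0.06, as did Pofut1, Poglut1 gave -0.02, and Mfng was below the filter.

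Among 13 genes of ubiquitin transfer and endocytosis, which act on ligand and receptor turnover, 12 were tested and 2 fell, beside 1.66% of all genes tested. Neurl1b, a ubiquitin ligase acting on Notch ligands, was measured at 27.3, 27.4 and 26.9 CPM in control and at 19.0, 18.4 and 18.7 CPM in Dnmt1Δ/Δep libraries (log2 fold change -0.54, SE 0.10, edgeR adjusted p = 0.015). Dtx3, of the Deltex family of ubiquitin ligases, was measured at 28.1, 27.3 and 25.5 CPM against 20.7, 19.5 and 18.4 CPM (-0.47, SE 0.11, edgeR adjusted p = 0.037). Both genes had a spread within each group far below the difference between the groups. Even so, Neurl1b was lost in 4 of 14 alternative fits (edgeR adjusted p up to 0.079) and Dtx3 in 5 (up to 0.14), and all of these left out 1 library, namely control replicate 2 or any Dnmt1Δ/Δep library for both genes and control replicate 3 for Dtx3.

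The median of the ubiquitin and endocytosis genes was -0.34, and the 7 of 12 that did not overlap were all lower, beside 11.7% of all genes tested that were lower without overlap and 29.9% either way. Besides Neurl1b and Dtx3 these were Dtx2 (-0.73, adjusted p = 0.061), Numbl (-0.53, adjusted p = 0.053), Mib2 (-0.43, adjusted p = 0.14), Fbxw7 (-0.37, adjusted p = 0.16) and Numb (-0.23, adjusted p = 0.27), none of which passed edgeR's test. With a replicate block, and likewise in DESeq2, 4 of the 12 fell, Dtx2 and Numbl among them, beside 603 of 16829 genes with the block and 658 of 20126 in DESeq2. Mib1, a ligand-directed ubiquitin ligase with the highest RPKM of the list, averaged 231 ± 27.6 CPM in control and, after deletion, 218 ± 48.4 CPM (SD, n = 3 per group).

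Of the 10 genes of the proteases that cut the receptor, Psen2 rose. It encodes a catalytic subunit of gamma-secretase and was measured at 6.48, 6.82 and 5.44 CPM in control and at 8.87, 9.67 and 10.3 CPM in Dnmt1Δ/Δep libraries. Its groups were apart, and its log2 fold change was 0.62 (SE 0.15, edgeR adjusted p = 0.048). This call is close to the threshold and was lost in 10 of 14 alternative fits, where the adjusted p reached 0.17, and 0.052 in the fit with a replicate block. Adam10, which makes the first ligand-induced cut and had the highest RPKM of the list (58.2 in control), was at 286 ± 21.3 and 281 ± 51.7 CPM (SD, n = 3 per group, log2 fold change -0.03, adjusted p = 0.95).

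None of the 8 genes of the nuclear complex passed in edgeR or limma-voom, 2 of them reached an unadjusted p of 0.05, beside 23.6% of all genes tested, and 2 (Maml2 and Cir1) fell in DESeq2, beside 658 of 20126 genes. Their median was -0.13. The coactivator gene Maml2 gave -0.51 (adjusted p = 0.064), and Snw1, with the highest RPKM of the list (22.7 in control), gave -0.13 (adjusted p = 0.56). Exons of a neighbouring gene cover 44.2% of Snw1, so its reads are uncertain.

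Of 9 other targets of the pathway, 6 were tested and none passed in edgeR, DESeq2 or limma-voom, while 1 reached an unadjusted p of 0.05, beside 23.6% of all genes tested. Cdkn1a, a cell cycle inhibitor and Notch target in keratinocytes, had the highest RPKM of the list and was measured at 712, 994 and 924 CPM in control and at 873, 989 and 770 CPM in Dnmt1Δ/Δep libraries. Its means were equal to 3 digits, at 877 CPM, and the interval of the log2 fold change ran from -0.37 to 0.37. Nrarp, a feedback inhibitor, was at 52.1, 68.0 and 84.2 CPM against 64.4, 79.0 and 62.1 CPM, with an interval from -0.43 to 0.44, and 79.4% of its exon bases are shared with another annotated gene. Hes6 gave -0.07 and Hes7 -0.41, Heyl gave 0.63 and Hey2 1.56 (adjusted p = 0.19) at under 1 CPM, and Hes5 had no count in any library. Notch targets thus showed no difference that passed the test, and their intervals leave room for changes of the sizes they span.

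**Figure D4:**
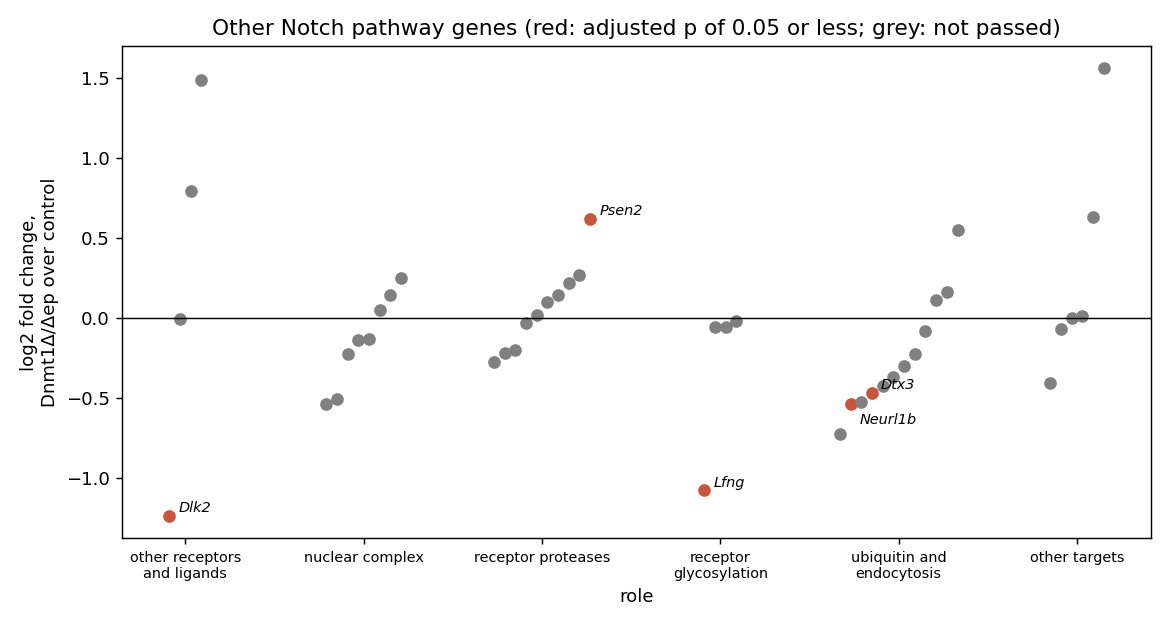
Log2 fold change, Dnmt1Δ/Δep over control, of the 44 tested pathway genes beside the members, in 6 columns by role, with 1 point per gene (red where edgeR's adjusted p was 0.05 or less, grey otherwise). Dlk2, Lfng, Neurl1b and Dtx3 lie below 0 and Psen2 above it.

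Differentiation markers were read beside these values, since the pathway acts at the step from basal to suprabasal cells. None of 10 suprabasal genes passed in edgeR with the filter, 4 reached an unadjusted p of 0.05, beside 23.6% of all genes tested, and their median log2 fold change was -0.26. In DESeq2 4 passed, 1 higher and 3 lower, beside 1860 higher and 658 lower of 20126 genes, and 1 passed in limma-voom. The most abundant per length was Krtdap (812 RPKM in control), with 551 ± 130 against 328 ± 87.0 CPM (SD, n = 3 per group, -0.75, adjusted p = 0.096). Krt1 and Krt10 were at -2.30 (adjusted p = 0.085) and -1.58 (adjusted p = 0.069), and Ivl, the gene of involucrin, at 1.61 (adjusted p = 0.061). With all libraries and no filter on low counts, edgeR passed Krt1 (adjusted p = 0.0075), Krt10 (adjusted p = 0.0067) and Ivl (adjusted p = 0.0066), and Ivl also passed without control replicate 3 (2.16, adjusted p = 0.017) or Dnmt1Δ/Δep replicate 3 (1.89, adjusted p = 0.05). Without control replicate 1, whose Krt1 level was as low as that of the Dnmt1Δ/Δep libraries, Krt1 and Krt10 passed (-2.80, adjusted p = 4.6e-04, and -1.96, adjusted p = 0.0033), whereas without control replicate 3 Krt1 was at -1.69 and did not pass. Of 9 basal genes 4 fell, namely Krt5 (-0.50, adjusted p = 0.038), Krt14 (-0.61, adjusted p = 0.028), Col17a1 (-0.55, adjusted p = 0.035) and Dst (-0.76, adjusted p = 0.013), beside 1.66% of all genes tested, and their median was -0.26. Another 4 of the 9 had positive values that did not pass, Itga6 (0.18), Itgb4 (0.17), Itgb1 (0.34) and Lamb3 (0.48, edgeR adjusted p = 0.066), and Lamb3 passed as higher with a replicate block. The calls of Krt5, Krt14, Col17a1 and Dst were lost in 6, 4, 3 and 1 of 14 alternative fits, for Krt5 also with no filter (edgeR adjusted p = 0.056) and otherwise where 1 library was left out. The part of differentiation state in the values of Jag1 and Dll1 was not tested.

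Markers of other cell types were low beside the basal keratin genes Krt5 and Krt14. The 6 endothelial markers summed to 6.83 to 17.9 CPM in control and 16.6 to 23.8 CPM in Dnmt1Δ/Δep libraries. Of the 5 tested, 2 rose, beside 7.71% of all genes tested, and Emcn was below the filter. Cdh5 rose from 0.255 to 4.62 CPM (log2 fold change 4.11, edgeR adjusted p = 0.0097, and 5.44 without control replicate 1). Pecam1 rose from 1.92 to 7.16 CPM (edgeR adjusted p = 0.0075). Kdr did not pass, at 6.81 CPM in control and 6.11 CPM after deletion (-0.16, edgeR adjusted p = 0.93). Neither did Tek (0.58, adjusted p = 0.41) or Vwf (0.68, adjusted p = 0.38). The 6 mural markers summed to 401 to 460 CPM in control and 246 to 325 CPM in Dnmt1Δ/Δep libraries, with Rgs5, Kcnj8 and Abcc9 at or near 0. Of the 3 tested, Mcam, which gives most of the sum, fell from 392 to 249 CPM (edgeR adjusted p = 0.019, lost in 3 of 14 alternative fits). Pdgfrb went the other way without passing, from 2.35 to 5.71 CPM (log2 fold change 1.28, edgeR adjusted p = 0.2). Cspg4 did not pass either (-0.41, adjusted p = 0.39). The 6 fibroblast markers summed to 12.2 to 28.0 and 12.0 to 58.8 CPM, and none passed in edgeR, DESeq2 or limma-voom, 1 of them reaching an unadjusted p of 0.05, beside 23.6% of all genes tested.

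The 6 melanocyte markers summed to 207 to 546 CPM in control and 659 to 887 CPM in Dnmt1Δ/Δep libraries without overlap, and none passed in edgeR or limma-voom, 4 reaching an unadjusted p of 0.05, beside 23.6% of all genes tested. In DESeq2, 3 of them rose, beside 1860 of 20126 genes tested there, and with a replicate block 4 did, beside 1686 of 16829. The 6 leukocyte markers summed to 0.275 to 1.01 and 2.52 to 4.41 CPM, with Ptprc, Lyz2 and Cd3e at or near 0, and 2 of the 3 tested rose, Csf1r (2.67, edgeR adjusted p = 0.027) and Itgam (2.35, adjusted p = 0.047), beside 7.71% of all genes tested. Itgam was lost in 5 of 13 alternative fits (edgeR adjusted p up to 0.16) and shares 68.7% of its exon bases with another annotated gene, and Csf1r was lost in 4 of 13 (up to 0.088). Without control replicate 3 Itgam was at 3.26, and without control replicate 2 Csf1r was at 3.26. Per length, the summed RPKM of the endothelial (0.865 to 3.83) and leukocyte markers (0.0571 to 1.04) lay below the RPKM of Dll1 in each library, and that of the mural (67.1 to 128) and melanocyte markers (71.1 to 308) above that of Jag1. The fibroblast markers summed to 1.46 to 7.26 RPKM, above Dll1 in Dnmt1Δ/Δep replicate 1 (7.26 against 6.68 RPKM) and below it in the others. The part of other cell types in the values of Jag1 and Dll1 was not tested, and in such bulk libraries fewer cells of a type and less RNA per cell cannot be told apart.

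Across 14 alternative fits, which changed the scaling, the filter, the tool or the libraries, the log2 fold change of Jag1 lay between 0.53 and 0.77 and that of Dll1 between -1.11 and -0.78. Jag1 passed in 9 of them and Dll1 in 10. All of the fits in which either call was lost left out 1 library. With all 6 libraries and any of the other settings, both genes passed and no other member did.

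**Figure D5:**
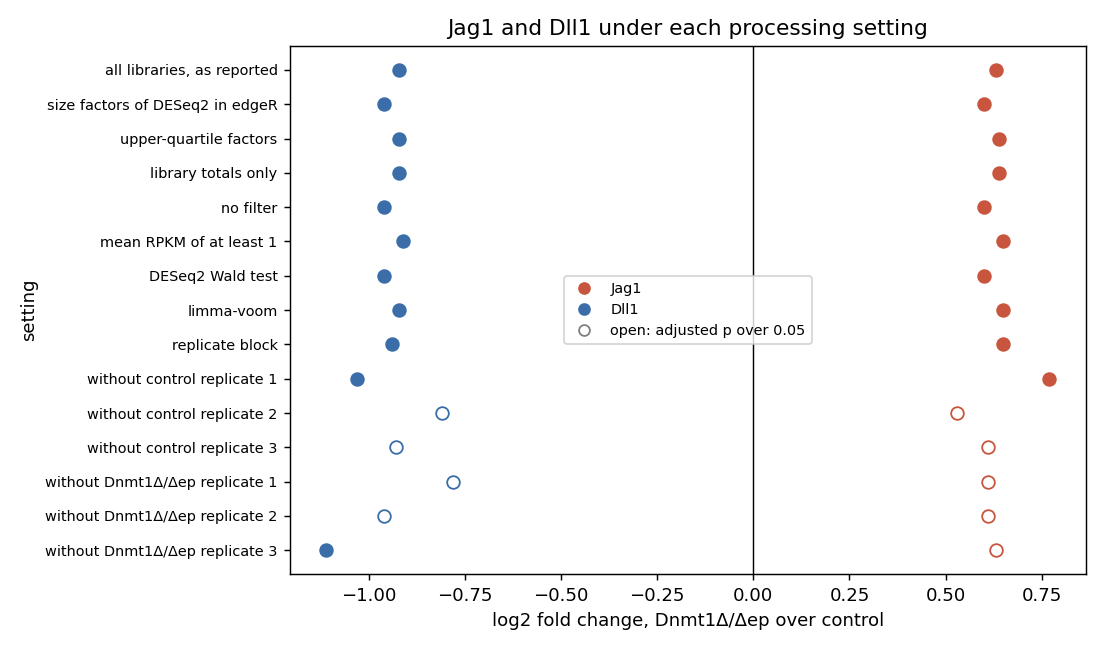
Log2 fold change of Jag1 (red) and Dll1 (blue), Dnmt1Δ/Δep over control, with all libraries as reported and under 14 other settings, open symbols marking an adjusted p over 0.05. Jag1 stays between 0.53 and 0.77 and Dll1 between -1.11 and -0.78, and the open symbols are all in rows with 1 library left out.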

How the data were processed

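RNA-seq of poly(A)-selected RNA was done on 6 libraries, 3 control and 3 Dnmt1Δ/Δep, and groups were taken from the sample labels. Cultures were grown for 5 days according to the labels and methods, and a legend of the paper gives a shorter time. The authors removed adapters and ribosomal reads with cutadapt and Bowtie2, used STAR for the alignment and HTSeq to count reads with a unique match, and the deposited values are raw counts per Ensembl gene with no normalization. The submitters' processing notes name GRCm38, whereas the methods name a human index for the gene alignment. The table's 5 entries that name no gene held 8.73% to 12.9% of the reads and were left out. The repeat count table was not used, nor were the tables of the authors' comparisons, which hold their normalized means, fold changes and p-values.

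Of 43629 identifiers, 42548 (97.5%) matched a gene of GENCODE M21, which gave symbols, positions and exon lengths. The test was the quasi-likelihood test of edgeR, with TMM factors, filterByExpr (minimum counts 10 and 15) and Benjamini-Hochberg adjustment over 16829 genes. A gene passed at an adjusted p of 0.05, and 2-fold calls also needed a log2 fold change of 1 in size. The software was edgeR 4.0.16, limma 3.58.1 and DESeq2 1.42.0 under R 4.3.3, and matplotlib 3.10.9 and pandas 2.3.3 under Python 3.11.15. On simulated data with 16454 genes and the libraries' own depths, 59 of 100 genes changed by 1 on the log2 scale and 94 of 100 changed by 2 were recovered, with 8 false calls among 161. The p-values measure the spread between these 6 libraries, and the limit of 3 counts covers counting error only.

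The members and gene lists were chosen with earlier results of these data known. Named beside the members are Dnmt1, each gene of the pathway, suprabasal and basal lists that passed, the gene with the highest level in each of these lists, the closest profile of each member, and the cell type markers. Other listed genes were named after their values were seen. Replicate numbers pair the libraries, since libraries of a number shared a lane per the file headers and their deviations from the group means correlated (0.45, 0.51 and 0.34 over 9310 genes, against -0.56 to 0.06 for other pairs). The methods use no block, so the block is an alternative. The 14 alternatives were DESeq2 size factors, upper-quartile factors, library totals, no filter, a mean RPKM of at least 1, DESeq2, limma-voom, the replicate block, and each library left out. A further one, the length of the longest coding transcript for RPKM, was chosen after seeing the data.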

Additional observations from a re-analysis of the deposited data

How the results depend on the processing

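The 2 members that passed did so under each of the 8 settings that kept all libraries, and those settings moved the median log2 fold change of all genes only within -0.04 to 0.01. With the replicate number as a block, Jag1 was at 0.65 (adjusted p = 0.015) and Dll1 at -0.94 (adjusted p = 0.012), no call of a member changed, Psen2 (adjusted p = 0.052) and Csf1r (adjusted p = 0.053) were lost, and genes past the adjusted p and lower numbered 603 against 279. Leaving out 1 library gave 0 to 2 members past the threshold and 1 to 8 other pathway genes, against 5 with all libraries. It gave 559 to 1183 genes called higher by 2-fold against 1014, 15 to 180 called lower against 66, and, past the adjusted p alone, 604 to 1684 higher against 1297 and 35 to 650 lower against 279. The lowest counts came without control replicate 2 and the highest without control replicate 1.

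Genes called lower numbered 107 with no filter, 35 with a mean RPKM of at least 1 and 122 with DESeq2. The RPKM filter also gave 394 called higher, 627 past the adjusted p and higher, and 157 past it and lower, from fewer genes tested, and DESeq2 gave 658 past it and lower, and 9 other pathway genes. Over the fits that left out 1 library, Notch3 lay between -0.26 and 0.07 and Hey1 between -0.18 and 0.30. Notch3 changed sign without control replicate 2 (0.07), control replicate 3 (0.04) and Dnmt1Δ/Δep replicate 1 (0.00), and Hey1 without control replicate 2 (-0.02) and Dnmt1Δ/Δep replicate 3 (-0.18). The cause was not tested. Hey1 was not tested under the RPKM filter. A fit without 1 library leaves 2 in a group and fewer degrees of freedom. At 14 to 57 counts per library, Hey1 had the widest interval of the 9 members. With the longest coding transcript as length, control RPKM became 99.4 for Notch1, 55.6 for Hes1, 35.2 for Jag1, 19.1 for Dll1, 16.6 for Jag2, 2.13 for Rbpj and 0.146 for Hey1.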
